A study of Mus musculus with 8 samples.

Results

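The enzymes of the pentose phosphate pathway were followed across 8 arrays through the genes G6pdx, Pgls, Pgd, H6pd, Rpia, Rpe, Tkt and Taldo1. Every probe set that the platform annotation assigns to one of these genes alone was taken, which gave 14 of the 45101 probe sets in the table, 6 for the oxidative and 8 for the non-oxidative branch. They cover 7 of the 8 genes. No probe set is assigned to G6pdx alone in the annotation used, so G6pdx, which encodes the enzyme that opens the pathway, was not analysed here, and the oxidative branch below stands for Pgls, Pgd and H6pd.

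The cells were mouse embryonic fibroblasts (MEFs) made immortal with large T antigen, a viral oncoprotein that all 4 groups share. The groups were VHL/FIH null, VHL null, FIH null and wild type MEFs, with 2 arrays each. The null cells were made by treating lines with floxed alleles with adeno-cre virus, and whether the wild type cells also received virus is not given in the sources used here. All were grown at 21% oxygen in high glucose medium with 10% serum. VHL is the substrate-binding part of a ubiquitin ligase that marks the alpha subunits of the hypoxia-inducible factors (HIF) for destruction, and FIH, encoded by Hif1an, is a hydroxylase that limits transcription by HIF. Each null genotype came from a floxed line of its own by the design text, so genotype and line of origin cannot be told apart. The arrays of a group are labelled as biological replicates, with nothing on whether each had its own embryo or culture, so a p-value here speaks only of the spread between these arrays.

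The pentose phosphate pathway takes glucose 6-phosphate away from glycolysis. Its oxidative branch makes the reducing agent NADPH, used for lipid synthesis and for keeping glutathione and thioredoxin reduced, and ends in ribulose 5-phosphate. The non-oxidative branch interconverts sugar phosphates reversibly, so it can make ribose 5-phosphate for nucleotides or return carbon to glycolysis. In the oxidative branch Pgls encodes 6-phosphogluconolactonase and Pgd 6-phosphogluconate dehydrogenase, while H6pd encodes an enzyme of the endoplasmic reticulum (ER) that carries out the opening reactions there. In the non-oxidative branch Rpia encodes ribose 5-phosphate isomerase, Rpe ribulose 5-phosphate epimerase, Tkt transketolase and Taldo1 transaldolase.

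The sequences before the transcription starts of Pgls, H6pd, Rpia and Tkt are shown because these genes had the clearest separations between groups. Each run is the 250 bases before the annotated start, 5′ to 3′ on the gene's strand, from RefSeq on GRCm38.p6, a build used only for these sequences. Capitals mark matches, on both strands, to ACGTG or GCGTG, the core letters of the element that HIF binds, or to TGACNNNGC, the core of the antioxidant response element.
Pgls, chr8:71591934-71592183, plus strand: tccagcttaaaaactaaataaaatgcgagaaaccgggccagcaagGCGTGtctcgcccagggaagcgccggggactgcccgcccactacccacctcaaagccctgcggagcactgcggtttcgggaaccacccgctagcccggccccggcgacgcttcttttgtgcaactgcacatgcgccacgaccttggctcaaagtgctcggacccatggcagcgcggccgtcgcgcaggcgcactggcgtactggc
H6pd, chr4:150003237-150003486, minus strand: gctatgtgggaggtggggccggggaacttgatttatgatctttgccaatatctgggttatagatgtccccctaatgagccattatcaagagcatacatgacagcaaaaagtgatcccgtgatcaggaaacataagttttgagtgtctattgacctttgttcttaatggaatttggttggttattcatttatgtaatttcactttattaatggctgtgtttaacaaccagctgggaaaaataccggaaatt
Rpia, chr6:70792176-70792425, minus strand: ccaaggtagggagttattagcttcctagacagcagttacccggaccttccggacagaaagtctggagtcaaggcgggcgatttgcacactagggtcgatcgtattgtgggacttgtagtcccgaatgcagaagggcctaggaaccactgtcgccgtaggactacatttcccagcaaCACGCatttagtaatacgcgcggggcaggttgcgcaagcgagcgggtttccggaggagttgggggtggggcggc
Tkt, chr14:30548881-30549130, plus strand: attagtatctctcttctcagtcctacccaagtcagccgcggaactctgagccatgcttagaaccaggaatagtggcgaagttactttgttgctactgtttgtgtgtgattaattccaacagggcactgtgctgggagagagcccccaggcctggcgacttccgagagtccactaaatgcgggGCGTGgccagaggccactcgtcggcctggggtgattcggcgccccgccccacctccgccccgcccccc
GCGTG was found once each before Pgls, Rpia and Tkt and in neither form before H6pd. It was also found before Pgd, at 1 of its 2 annotated starts, and before Taldo1, but not before Rpe. ACGTG and TGACNNNGC were found before none of the 7 measured genes. G6pdx, which was not measured, had 1 match each to GCGTG and TGACNNNGC. Among 32851 windows of the same length in the RefSeq table, 28.2% held GCGTG, 16.6% held ACGTG, 38.6% held either of these and 10.2% held TGACNNNGC. Such a match is a description of the letters and not evidence of a site.

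The values are MAS5 signals, a linear brightness of each probe set on each array, as the authors deposited them, with a trimmed mean of 2500.01 on every array. Tests were run on probe sets that exceeded 291.3, the overall median signal, on 2 or more arrays. That left 24517 probe sets and 11561 genes, among them 13 of the 14 pathway probe sets and all 7 measured pathway genes. Differences are between group means of log2(signal + 16), and a fold is that difference turned back to a ratio. Adjusted p-values are from limma with Benjamini-Hochberg adjustment over all tested probe sets, and a probe set passed below 0.05. Where a gene had several tested probe sets, the one with the highest mean log2 signal stood for it in counts of genes.

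The labels were checked with the deleted genes. Vhl averaged 979 ± 116 in VHL/FIH null, 731 ± 33.2 in VHL null, 3479.7 ± 76.5 in FIH null and 3294 ± 36.0 in wild type cells (SD, n = 2 each). Whether its probe set lies in the deleted part is not given in the sources used here. Hif1an averaged 1286 ± 166, 2033 ± 169.9, 1691 ± 21.7 and 2867 ± 206 in the same order, so it was also lower in VHL null cells, where it was not targeted (-0.49 against wild type, adjusted p = 0.00886, a call lost without wild type replicate 2 or VHL null replicate 1, and at -0.21 with adjusted p = 0.564 when its probe sets were averaged). Of 7 fibroblast markers, 5, 7, 6 and 6 were above the cutoff on both arrays of the VHL/FIH null, VHL null, FIH null and wild type groups. Pdgfra and Thy1 were below it on both arrays in VHL/FIH null cells, as was Thy1 in FIH null cells. Ptprc, Adgre1, Lyz2, Pecam1, Cdh5 and Cdh1, which mark blood cells, endothelium and epithelium, were below the cutoff on both arrays of every group. Medians of the arrays ran from 281.7 to 307.5, and the 3' to 5' signal ratio of Actb from 1.18 to 1.29. Spiked hybridization controls read 0.52 higher on the log2 scale in VHL/FIH null, 0.38 higher in VHL null and 0.26 higher in FIH null than in wild type arrays. Scaling to them moves every gene down by those amounts, so each direction below is relative to the mean level of its array.

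Among the 7 genes Rpia showed the largest difference between VHL null and wild type cells. Its signals were 3043 and 3138 in VHL/FIH null, 1873.5 and 2173 in VHL null, 6185 and 6357 in FIH null and 4971 and 4836.5 in wild type cells. No 2 groups overlapped, and both groups without VHL lay below both groups with it. The order from high to low was FIH null, wild type, VHL/FIH null, VHL null. Rpia was 2.42-fold lower in VHL null than in wild type cells (log2 difference -1.27, SE 0.0864, adjusted p = 3.78e-06) and 1.58-fold lower in VHL/FIH null than in wild type cells (-0.66, adjusted p = 2.16e-04).

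Rpia was also lower with VHL loss where FIH was absent too. It was 2.02-fold lower in VHL/FIH null than in FIH null cells (-1.02, adjusted p = 9.06e-06). This comparison shares no array with that of VHL null against wild type. Loss of FIH in cells without VHL went with a rise, 1.53-fold in VHL/FIH null against VHL null cells (0.61, adjusted p = 4.79e-04). These calls, all on the 1 probe set of Rpia, held under every alternative tried. In cells with VHL the rise with FIH loss was 1.28-fold (0.35, adjusted p = 0.0473), and 0.0956 on scaling to the hybridization controls (adjusted p = 0.434). That call ended when either wild type array (adjusted p = 0.143 and 0.19), either FIH null array (0.202 and 0.247) or either VHL/FIH null array (0.0505 and 0.0507) was left out. The interaction, which asks whether the effect of VHL loss differs with and without FIH, did not pass for Rpia (0.26, 95% interval -0.01 to 0.53, adjusted p = 0.188).

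**Figure D1:**
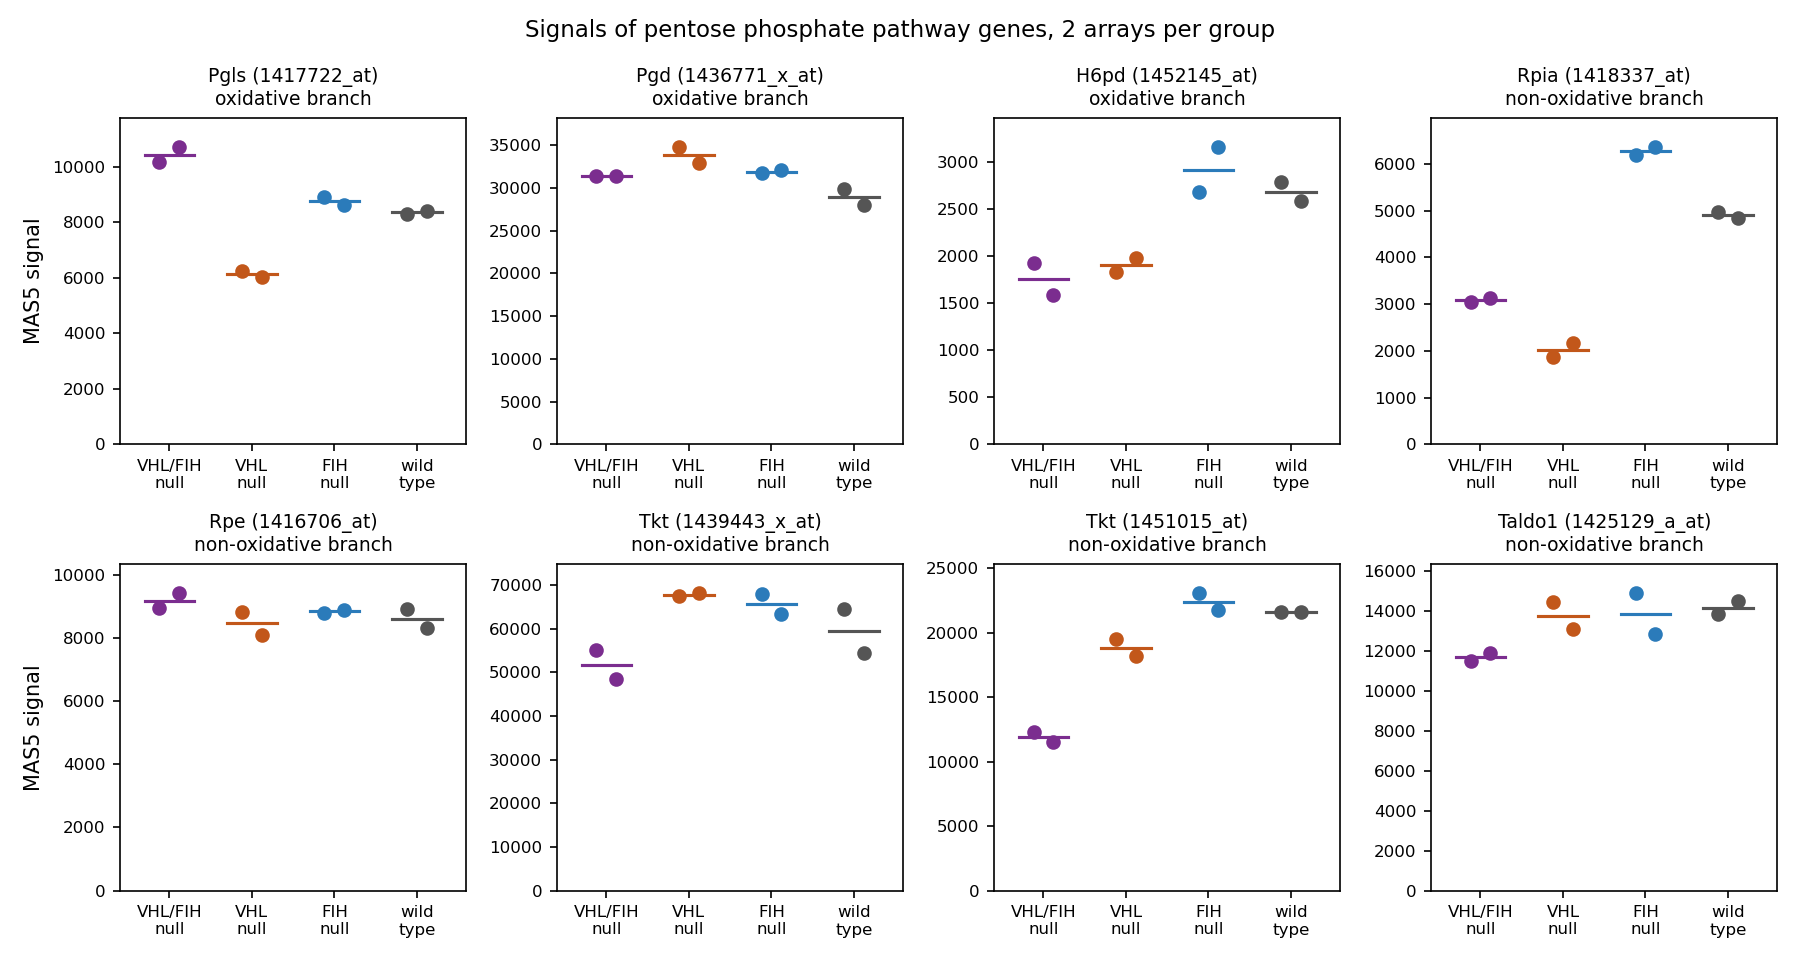
MAS5 signal (y axis, linear from 0) for the probe set that stands for each of 7 pathway genes and for a further probe set of Tkt, with groups on the x axis. Points are the 2 arrays of a group and lines their means. Rpia lies lowest in VHL null cells, Pgls highest in VHL/FIH null and lowest in VHL null cells, and Tkt probe set 1451015_at lowest in VHL/FIH null cells.

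Pgls, in the oxidative branch, was higher in VHL/FIH null and lower in VHL null than in wild type cells. Its signals were 10177 and 10715 in VHL/FIH null, 6252 and 6044 in VHL null, 8924 and 8631.5 in FIH null and 8314 and 8409 in wild type cells. The VHL/FIH null arrays were the highest of all 8 and the VHL null arrays the lowest, while FIH null and wild type lay between them without overlapping each other. Pgls fell by 0.44 on the log2 scale in VHL null against wild type cells (SE 0.0626, adjusted p = 4.52e-04), a ratio of 0.736. It rose by 0.32 in VHL/FIH null against wild type cells (adjusted p = 0.00278), although scaling to the hybridization controls reversed this (-0.20, adjusted p = 0.0371).

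Between the groups without VHL the difference was larger, 1.70-fold higher in VHL/FIH null than in VHL null cells (0.76, adjusted p = 1.24e-05). The interaction passed for Pgls (0.69, SE 0.0885, adjusted p = 5.89e-04), and both results held under every alternative tried. Against FIH null cells Pgls was higher in VHL/FIH null cells by 0.25 (adjusted p = 0.00943), although scaling to the hybridization controls gave -0.0132. That call ended without FIH null replicate 2 (adjusted p = 0.0783). FIH null and wild type cells differed by 0.07 (95% interval -0.07 to 0.21, adjusted p = 0.614), which did not pass. Of 5 macrophage and blood markers, Ptprc, Adgre1 and Lyz2 were below the cutoff in every group, and only Cd14 and Csf1r were tested. The summed signal of the 5 was 2567 to 2632 in VHL/FIH null and 3553 to 3695 in VHL null cells. It was 2866 to 2955 in FIH null and 2771 to 3054 in wild type cells. Cd14 averaged 1464.9, 2473.45, 1631.9 and 1776.05 in the same order. Cd14 was higher in VHL null than in wild type cells (0.47, adjusted p = 0.0057). It was lower in VHL/FIH null than in VHL null cells (-0.75, adjusted p = 4.35e-04). Csf1r averaged 662.95, 763.05, 851.45 and 686.95, highest in FIH null cells, and passed in neither comparison. The part of these markers in the Pgls values was not tested.

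H6pd was lower wherever VHL was absent. Its signals were 1924 and 1586 in VHL/FIH null, 1828 and 1983 in VHL null, 2678 and 3156 in FIH null and 2786 and 2579.7 in wild type cells. The 4 arrays without VHL all lay below the 4 with it, and within each of these sets the groups overlapped. H6pd fell by 0.61 in VHL/FIH null (SE 0.122, adjusted p = 0.00302) and by 0.49 in VHL null cells (adjusted p = 0.0104) relative to wild type, and by 0.73 in VHL/FIH null against FIH null cells (adjusted p = 8.96e-04). In VHL null cells the call was lost on leaving out replicate 1 of the wild type (adjusted p = 0.068) or of the VHL null arrays (0.0697), or with quantile normalization (0.052). The difference between VHL/FIH null and VHL null cells was -0.12 (95% interval -0.39 to 0.15, adjusted p = 0.489).

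A summed list of epithelium markers split the arrays by VHL as Rpia and H6pd did, although not every marker on it did. Of its 4 markers, Cdh1 was below the cutoff on both arrays of every group, and Krt8 on both arrays of every group but FIH null. The summed signal of the 4 was 931 to 1250 in VHL/FIH null and 1045 to 1312 in VHL null cells. It was 2392 to 2418 in FIH null and 2155 to 2466 in wild type cells. Krt18, a keratin gene on that list, averaged 340.45 ± 59.5, 657 ± 36.8, 1314 ± 66.0 and 1375 ± 26.4 in the same order. Epcam, the other tested marker of that list, did not split so, at 488.8 ± 40.6, 283.6 ± 189, 795.4 ± 21.9 and 489.6 ± 157, with VHL/FIH null and wild type arrays overlapping and no comparison passing. In RNA from bulk cultures fewer cells of a type and less RNA per cell cannot be told apart. Whether epithelial cells were present, or had a part in the results, was not tested.

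Pgd, the NADPH-making step after Pgls, showed small differences on which its 4 tested probe sets did not agree. The probe set that stands for it, 1436771_x_at, read 31409.9 and 31346 in VHL/FIH null, 34744.5 and 32842 in VHL null, 31736 and 32056 in FIH null and 29805 and 27927 in wild type cells. It was 1.17-fold higher in VHL null than in wild type cells (0.23, SE 0.0577, adjusted p = 0.0116), although scaling to the hybridization controls gave -0.15. It no longer passed once wild type replicate 2 (adjusted p = 0.0908) or VHL null replicate 1 (0.0918) was left out.

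Probe set 1437380_x_at of Pgd gave 0.36 in the same comparison (adjusted p = 0.00981, 0.0644 without wild type replicate 2 and 0.0881 without VHL null replicate 1, and -0.0186 on scaling to the hybridization controls). Probe set 1438627_x_at of Pgd gave 0.38 without passing (adjusted p = 0.0545), and 1423706_a_at gave -0.09 (adjusted p = 0.23). The suffix x marks probe sets that may also bind other transcripts, and a those that bind several transcripts of 1 gene. Probe set 1438627_x_at was lower in VHL/FIH null than in VHL null cells (-0.45, adjusted p = 0.0325), a call that ended without VHL null replicate 1 (adjusted p = 0.26) or VHL/FIH null replicate 2 (0.207). Against FIH null cells 1423706_a_at was lower in VHL/FIH null cells (-0.20, adjusted p = 0.0155), a call that ended without FIH null replicate 1 (0.0783) or replicate 2 (0.0876).

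Tkt, which links the pathway to fructose 6-phosphate and glyceraldehyde 3-phosphate, was lowest in VHL/FIH null cells on each of its 3 tested probe sets, but by different amounts. Probe set 1451015_at read 12304 and 11511 in VHL/FIH null, 19498 and 18166 in VHL null, 23048 and 21764 in FIH null and 21598 and 21620.1 in wild type cells. Its VHL/FIH null arrays lay far below the other 6, and its VHL null arrays lay between them and the rest. It was 1.81-fold lower in VHL/FIH null than in wild type (-0.86, SE 0.0635, adjusted p = 3.91e-06), 1.58-fold lower than in VHL null (-0.66, adjusted p = 3.78e-05) and 1.88-fold lower than in FIH null cells (-0.91, adjusted p = 2.14e-06).

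The interaction also passed on this Tkt probe set (-0.71, SE 0.0899, adjusted p = 5.39e-04), and these 4 results of 1451015_at held under every alternative tried. In VHL null against wild type cells it was lower by a smaller amount (-0.20, adjusted p = 0.0327). Leaving out either wild type array (adjusted p = 0.111 and 0.104) or VHL null replicate 2 (0.196) ended this, as did median centring (0.215).

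The brightest Tkt probe set, 1439443_x_at, which may also bind related transcripts, read 55069 and 48390.1 in VHL/FIH null, 67612 and 68112 in VHL null, 67934.5 and 63369 in FIH null and 64580 and 54399.7 in wild type cells. Its VHL/FIH null and wild type arrays overlapped, and their difference of -0.20 did not pass (95% interval -0.39 to -0.01, adjusted p = 0.103). It passed without wild type replicate 2 (-0.32, adjusted p = 0.0261) or VHL/FIH null replicate 1 (-0.29, 0.0422), with quantile normalization (-0.36, 0.00151), on scaling to the hybridization controls (-0.72, 6.61e-06) and when the Tkt probe sets were averaged (-0.53, 0.0011). It was lower in VHL/FIH null than in VHL null cells (-0.39, adjusted p = 0.00658) and than in FIH null cells (-0.35, adjusted p = 0.0098). The FIH null comparison ended without FIH null replicate 1 (0.0766) or VHL/FIH null replicate 2 (0.069). The interaction was -0.54 (adjusted p = 0.0146) and ended without FIH null replicate 1 (0.0635), VHL null replicate 1 (0.0504) or VHL null replicate 2 (0.0537). In VHL null against wild type cells this probe set gave 0.20 (adjusted p = 0.107), where 1451015_at gave a fall. That value passed without wild type replicate 1 (0.32, adjusted p = 0.0314) and with median centring (0.28, 0.0294), and was -0.18 on scaling to the hybridization controls. The faint probe set 1436605_at read 329.9 and 239.1 in VHL/FIH null, against 401.0 to 498.4 in VHL null, 389.2 to 476.7 in FIH null and 373.5 to 461.4 in wild type cells, and passed in none of the 6 comparisons.

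**Figure D2:**
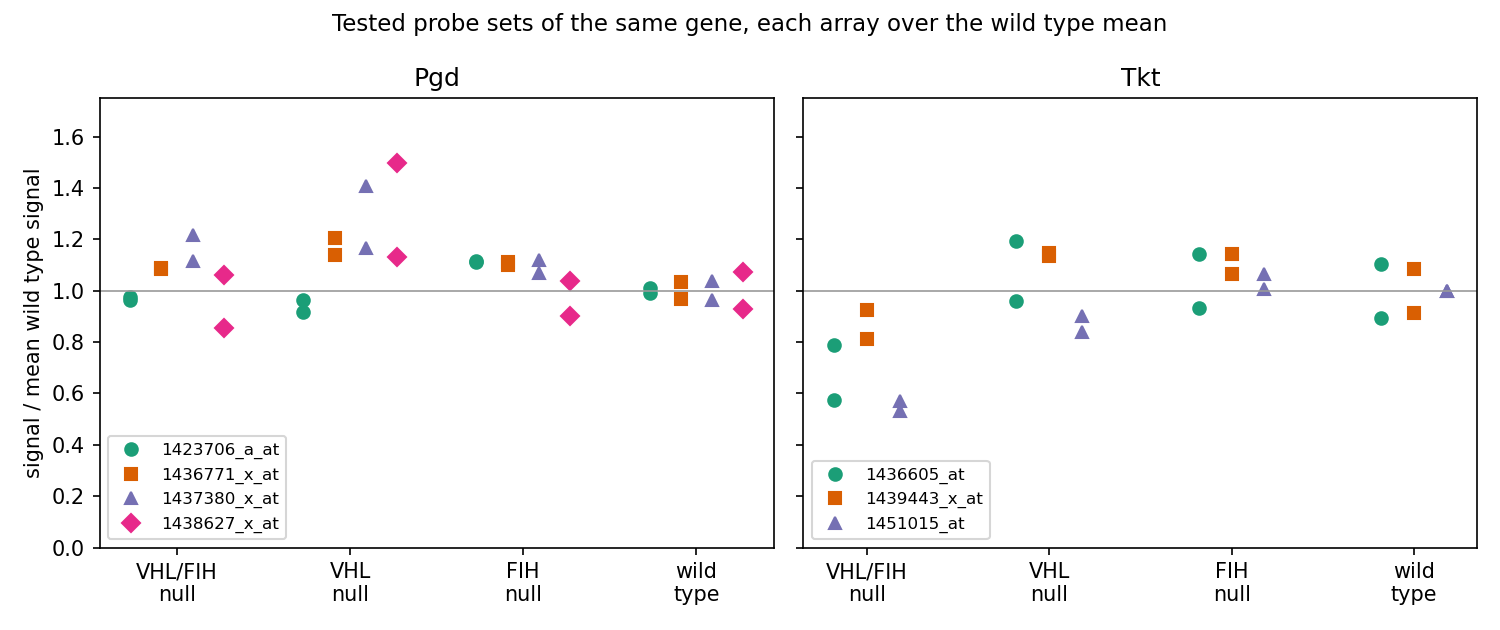
Signal of each array over the mean wild type signal of the same probe set (y axis, linear from 0) for the 4 tested probe sets of Pgd and the 3 of Tkt, with groups on the x axis and 2 arrays per group. The Tkt probe sets all lie lowest in VHL/FIH null cells but at different depths, and the Pgd probe sets differ in VHL null cells, where 1423706_a_at lies below the line at 1 and the others above it.

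Taldo1, which works beside Tkt, read 11486 and 11885 in VHL/FIH null, 14481 and 13089 in VHL null, 14892 and 12845 in FIH null and 13839.9 and 14509 in wild type cells. The VHL/FIH null arrays lay below the other 6, which overlapped. Taldo1 fell by 0.28 in VHL/FIH null against wild type (SE 0.0805, adjusted p = 0.0218), by 0.24 against VHL null (adjusted p = 0.0484) and by 0.24 against FIH null cells (adjusted p = 0.0355). With no variance trend none of these passed (adjusted p = 0.0884, 0.142 and 0.114 in that order). Median centring also ended the fall against wild type (0.0881), and no filter the fall against FIH null (0.0623). The fall against wild type ended without either wild type array (adjusted p = 0.0508 and 0.107) or VHL/FIH null replicate 1 (0.0853). The fall against FIH null ended without FIH null replicate 1 (0.297) or either VHL/FIH null array (0.122 and 0.0702). The fall against VHL null ended without any one of the wild type, VHL null or VHL/FIH null arrays (adjusted p from 0.0504 to 0.274), and 11 of 20 alternatives ended it, among them no filter (0.0835), quantile normalization (0.0701), median centring (0.0528) and a fit of only the groups compared (0.0507).

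Rpe, the epimerase, showed no difference that passed in the main analysis. Its probe set 1416706_at read 8963 and 9426 in VHL/FIH null, 8844 and 8111 in VHL null, 8803 and 8909.8 in FIH null and 8927 and 8317 in wild type cells. Against wild type the differences were 0.09 in VHL/FIH null (95% interval -0.06 to 0.25), -0.02 in VHL null (-0.18 to 0.13) and 0.04 in FIH null cells (-0.11 to 0.19). On scaling to the hybridization controls it passed as lower in VHL/FIH null (-0.43, adjusted p = 8.70e-04) and VHL null cells (-0.40, 0.00183) against wild type. Probe set 1416705_at did so too (-0.42, 0.00379, and -0.46, 0.00299). In the main analysis 1416705_at passed in none of the 6 comparisons either. Probe set 1448444_at lay between 72.4 and 192 on all arrays, below the cutoff, and was not tested.

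**Figure D3:**
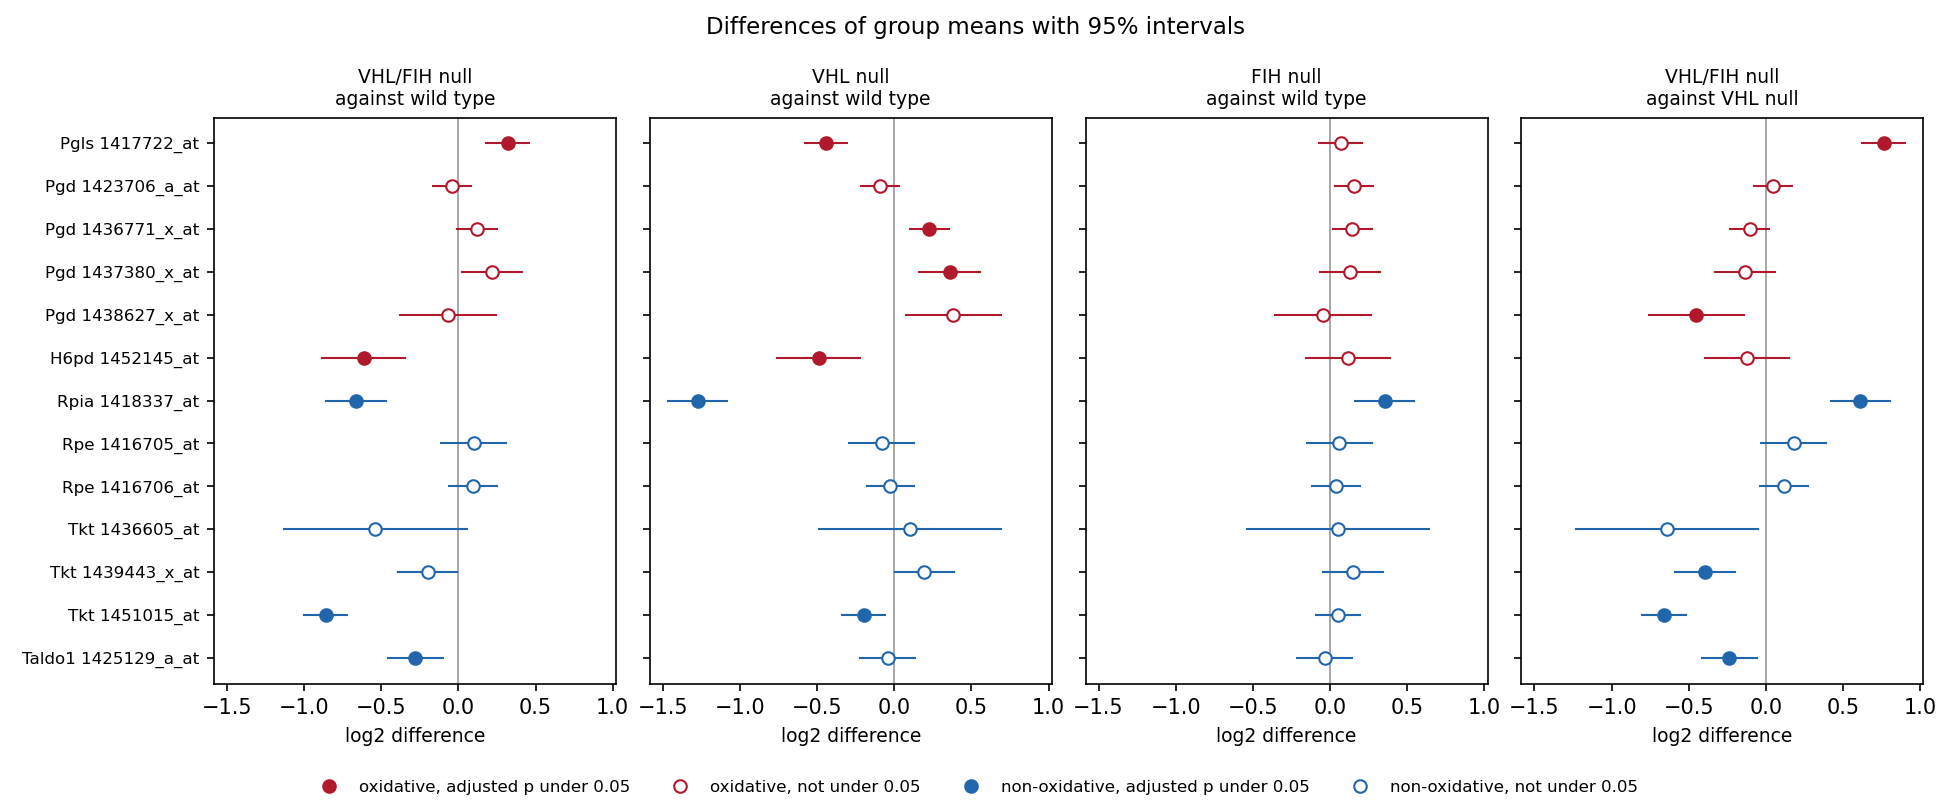
Log2 differences between groups (x axis) with 95% intervals for the 13 tested probe sets (rows), in 4 comparisons. Filled points passed at an adjusted p below 0.05, red marks the oxidative and blue the non-oxidative branch. Rpia and H6pd lie left of 0 in both groups without VHL against wild type, while Pgls lies right of 0 in VHL/FIH null and left of 0 in VHL null cells.

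Each branch held genes that passed in opposite directions. The oxidative branch did so in VHL/FIH null against wild type and against FIH null cells, where the Pgls rise did not hold on scaling to the hybridization controls. It also did so in VHL null against wild type cells, through a rise of Pgd whose call was lost under 5 of 20 alternatives. The non-oxidative branch did so in VHL/FIH null against VHL null cells. In VHL null against wild type cells 4 of 7 genes passed, where 41.4% of all tested genes did (14.4% higher, 27% lower) and 35.3% of all tested probe sets. In the oxidative branch Pgls and H6pd were lower and Pgd higher (3 of 3 passed, median difference -0.44), and in the non-oxidative branch Rpia alone was counted lower (1 of 4, median -0.03), against a median of -0.10 over all genes. Tkt was counted by 1439443_x_at, which did not pass. Its probe set 1451015_at was lower (-0.20, adjusted p = 0.0327), a call not kept in 6 of 19 alternatives. In VHL/FIH null against wild type cells 4 of 7 passed, where 39.1% of all genes did (16.7% higher, 22.3% lower) and 34.1% of probe sets. Here Pgls was higher and H6pd lower in the oxidative branch (median 0.12), and Rpia and Taldo1 were lower in the non-oxidative branch (median -0.24), against a median of -0.05 over all genes. Tkt again did not pass by 1439443_x_at, while its probe set 1451015_at was lower (-0.86, adjusted p = 3.91e-06). In FIH null against wild type cells 1 of 7 passed, Rpia, where 5.29% of all genes did (1.39% higher, 3.89% lower) and 4.33% of probe sets, with medians of 0.12 and 0.09 in the oxidative and non-oxidative branch and -0.00242 over all genes. These comparisons share the wild type arrays.

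Between VHL/FIH null and VHL null cells 4 of 7 genes passed, where 35% of all genes did (20.7% higher, 14.3% lower) and 29.8% of probe sets. Pgls was higher in the oxidative branch, and in the non-oxidative branch Rpia was higher while Tkt and Taldo1 were lower (medians -0.11 and -0.06, against 0.05 over all genes). Between VHL/FIH null and FIH null cells 5 of 7 passed, where 43.6% of all genes did (19.7% higher, 23.9% lower) and 38.3% of probe sets. Here Pgls was higher and H6pd lower, and Rpia, Tkt and Taldo1 were lower (medians -0.02 and -0.29, against -0.04). The interaction passed for 2 of 7, Pgls upward and Tkt downward, where 19.1% of all genes did (11.9% upward, 7.19% downward) and 15.7% of probe sets. With 3 and 4 measured genes, no difference between the branches was tested.

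Genes around the pathway were counted in lists, each gene by its brightest tested probe set. Enzymes that handle the sugar phosphates shared with glycolysis were higher in VHL null than in wild type cells for 7 of 8 tested, where 14.4% of all genes were higher, and the other did not pass. The median difference of the 8 was 1.19. Leaving out probe sets with the suffixes x, s or a gave 3 higher. That count is not out of the same 8, because it also leaves out Aldoc, whose 1 tested probe set has the suffix a. Aldoc, an aldolase that makes the glyceraldehyde 3-phosphate used by Tkt and Taldo1, averaged 8211.5 ± 520.1 in VHL/FIH null, 4920.3 ± 343 in VHL null, 1882 ± 47.9 in FIH null and 1023 ± 18.0 in wild type cells (SD, n = 2 each). It was also 1.67-fold higher in VHL/FIH null than in VHL null cells (0.74, adjusted p = 1.65e-04). Hk2, a hexokinase that makes glucose 6-phosphate, was 3.46-fold higher in VHL null than in wild type cells (adjusted p = 9.24e-08), and Pfkp, a phosphofructokinase that draws on fructose 6-phosphate, 4.69-fold (adjusted p = 5.33e-08). Hk2 was 1.20-fold higher in VHL/FIH null than in VHL null cells (adjusted p = 0.0188), a call that ended without either VHL null array (0.0601 and 0.0969) or VHL/FIH null replicate 1 (0.111). In that comparison 3 of 8 were higher and 1 lower (20.7% and 14.3% of all genes). With 1 array left out the higher count ran from 1, without either VHL null array or VHL/FIH null replicate 1, to 5, without VHL/FIH null replicate 2, and the lower count fell to 0 on leaving out any FIH null, VHL null or VHL/FIH null array.

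Genes listed with other sources of NADPH went both ways. The list also holds NAD kinases, and whether each enzyme on it supplies NADPH in these cells was not tested. In VHL null against wild type cells 3 of 11 tested were higher and 5 lower, where 14.4% and 27% of all genes were (median -0.13). Idh1, the cytosolic isocitrate dehydrogenase, averaged 6184 ± 1099 in VHL/FIH null, 5999 ± 160.3 in VHL null, 13773 ± 23.5 in FIH null and 14596.5 ± 648 in wild type cells, 2.43-fold lower in VHL null than in wild type cells (adjusted p = 1.03e-05). Nadk2, a mitochondrial NAD kinase, was 1.95-fold higher (adjusted p = 3.83e-06) and Me2, a mitochondrial malic enzyme, 1.90-fold higher (adjusted p = 8.63e-06) in VHL null cells. In VHL/FIH null against VHL null cells 1 was higher and 3 lower, where 20.7% and 14.3% of all genes were. The 1 was Me1, the cytosolic malic enzyme, at 21305 ± 415 in VHL/FIH null, 11958 ± 173 in VHL null, 17987 ± 351 in FIH null and 15313 ± 319 in wild type cells, so that it was 1.78-fold higher in VHL/FIH null than in VHL null cells (adjusted p = 2.83e-06). Mthfd2l, a mitochondrial folate enzyme, was among the 3 that were lower (-0.51, adjusted p = 0.00147).

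Enzymes that spend NADPH in redox reactions were lower in VHL null than in wild type cells for 5 of 9 tested and higher for 2, where 27% and 14.4% of all genes were (median -0.32). The higher count was 1 without any one of the wild type arrays or VHL null replicate 1. The quinone reductase gene Nqo1 averaged 2617 ± 58.7 in VHL/FIH null, 2297 ± 29.3 in VHL null, 5696 ± 2.12 in FIH null and 3692 ± 54.9 in wild type cells. The biliverdin reductase gene Blvrb was lower by 0.74 (adjusted p = 3.27e-04) and the carbonyl reductase gene Cbr3 higher by 0.67 (adjusted p = 3.24e-04) in VHL null cells. In VHL/FIH null against VHL null cells 6 of 9 were higher, where 20.7% of all genes were, and the other 3 did not pass. No array could be left out with 6 remaining: the count ran from 2 to 5, with 3 without VHL null replicate 1, 2 without VHL null replicate 2 and 3 without VHL/FIH null replicate 1, and it was 1 on scaling to the hybridization controls. Among these were Txnrd2, a mitochondrial thioredoxin reductase (0.57, adjusted p = 0.00468), and Blvrb (0.42, adjusted p = 0.00964, and 0.27 with adjusted p = 0.08 on scaling to hybridization controls).

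Genes on the ribose phosphate side and of nucleotide synthesis went both ways as well. Of 8 tested genes that handle ribose phosphates or related sugars, 1 was higher and 1 lower in VHL null than in wild type cells, where 14.4% and 27% of all genes were. Tigar, a phosphatase that lowers fructose 2,6-bisphosphate and favours the pentose phosphate pathway, averaged 1600.05 ± 205 in VHL/FIH null, 1104 ± 63.7 in VHL null, 1929 ± 8.49 in FIH null and 1686.5 ± 36.6 in wild type cells. It was lower in VHL null than in wild type cells (-0.60, adjusted p = 0.00298). It was higher in VHL/FIH null than in VHL null cells (0.52, adjusted p = 0.00744), a call that ended without VHL null replicate 1 (0.0516) or VHL/FIH null replicate 2 (0.0511), and at 0.32 (0.0662) when its probe sets were averaged. Prps2, which turns ribose 5-phosphate into the precursor of nucleotides, was higher in VHL null than in wild type cells (0.36, adjusted p = 0.00756). The Prps2 value was -0.0183 on scaling to the hybridization controls and -0.0161 when its probe sets were averaged, and it no longer passed without replicate 1 of the wild type (0.0669) or VHL null arrays (0.0664). Pgm2, a phosphopentomutase, was lower in VHL/FIH null than in VHL null cells (-0.27, adjusted p = 0.0125, and 0.0754 without VHL null replicate 1).

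Of 18 tested nucleotide synthesis genes 1 was higher and 5 lower in VHL null than in wild type cells, where 14.4% and 27% of all genes were. The 1 higher gene no longer passed on leaving out any array but the VHL/FIH null ones. Between VHL/FIH null and VHL null cells 3 were higher and 5 lower, where 20.7% and 14.3% were. Impdh1, of guanine nucleotide synthesis, was lower in VHL null than in wild type cells (-0.62, adjusted p = 7.13e-04). Umps, of pyrimidine synthesis, gave -0.37 (adjusted p = 0.00156), and 0.0245 without probe sets that may bind several transcripts. Adss, of adenine nucleotide synthesis, was lower in VHL/FIH null than in VHL null cells (-0.34, adjusted p = 0.00118). Adssl1, its muscle paralog, read 365.3 and 383.7 in VHL/FIH null, 52.3 and 25 in VHL null, 178.7 and 149.9 in FIH null and 399.7 and 254.9 in wild type cells, near or below the cutoff of 291.3 in each group.

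**Figure D4:**
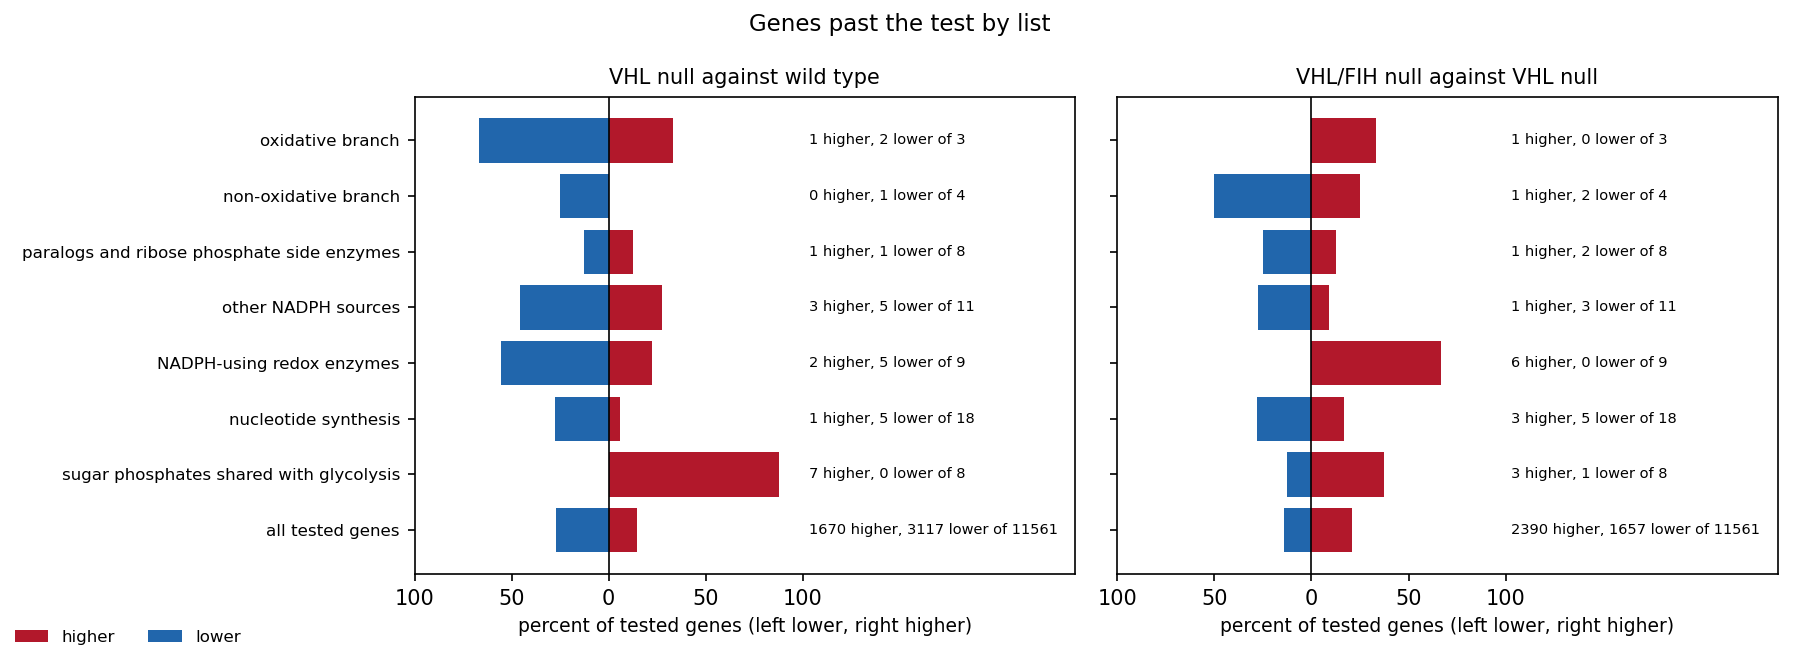
Share of the tested genes of each list that passed as higher (red, right) or lower (blue, left), in percent on the x axis, for 2 comparisons, with counts beside the bars and all tested genes as the bottom row. Among 8 sugar phosphate enzymes 7 were higher in VHL null than in wild type cells, and 6 of 9 NADPH-using enzymes were higher in VHL/FIH null than in VHL null cells, a count that ran from 2 to 5 with 1 array left out.

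In the ER, where H6pd works, Slc37a4, the transporter that brings in glucose 6-phosphate, averaged 3186 ± 333 in VHL/FIH null, 3259 ± 87.5 in VHL null, 1725 ± 92.6 in FIH null and 1836 ± 48.8 in wild type cells. It was 1.77-fold higher in VHL null than in wild type cells (adjusted p = 1.76e-04), the opposite direction to H6pd. G6pc3, a glucose 6-phosphatase, was lower in VHL/FIH null than in VHL null cells (-0.35, adjusted p = 0.0132), a call that ended without VHL null replicate 1 (0.0982) or VHL/FIH null replicate 1 (0.0521). Among 7 genes of the NRF2 pathway, which controls pathway enzymes and other antioxidant genes, 1 was higher and 1 lower in VHL null than in wild type cells, where 14.4% and 27% of all genes were. These were Maff, a small partner protein (1.19, adjusted p = 6.9e-05), and Nfe2l1, a relative of NRF2 (-0.98, adjusted p = 3.76e-04). In VHL/FIH null against wild type cells 3 of the 7 were higher and 3 lower, where 16.7% and 22.3% of all genes were. Against FIH null cells 2 were higher and 3 lower, where 19.7% and 23.9% were. In limma 0 of 7 passed in VHL/FIH null against VHL null cells, where 35% of all genes did and 3 of these 7 had an unadjusted p below 0.05. Without either wild type array 1 was lower there, and without wild type replicate 1 the lower count in VHL null against wild type cells was 2.

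The genes whose log2 signals ran most like a pathway gene over the 8 arrays were found by Pearson's r, given as a description because the arrays share their groups. For Rpia these were Habp4 (r = 0.997), Usp21 (0.996) and Abcc5 (0.995). For Pgls they were Tbx15 (0.994), Cog6 (0.991) and Ano1 (0.989), and for H6pd Mov10 (0.987), Ppp3r1 (0.984) and Ppp2r5d (0.983). The highest r was 0.973 for Tkt (Myg1), 0.961 for Pgd (Tmco4), 0.987 for Rpe (Tmem120b) and 0.958 for Taldo1 (Stam2).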

How the data were processed

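Total RNA of 8 MEF samples, 2 per group, was hybridized to Affymetrix mouse arrays per the labels' protocols. Per the submitters' processing notes, the deposited intensity values came from MAS5 (version not given in the sources used here). They are linear, 1 per probe set in each sample, and no further normalization was applied. Precision is limited by the number of arrays.

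Of 45101 probe sets, 64 were controls, 34945 had 1 gene symbol, 932 several and 9160 none listed. Symbols were updated through Entrez numbers. Group means of log2(signal + 16) were fitted on all 24517 tested probe sets with limma 3.58.1 in R 4.3.3 (lmFit, eBayes with a trend, 6.42 prior and 4 residual degrees of freedom), a script tested on simulated data, and 6 two-sided contrasts were adjusted by Benjamini-Hochberg. The alternatives were 2 other pseudocounts (1 and 64), 2 filters, 3 scalings, other variance models, a replicate block and each array left out. Probe set choices were varied too, among them none with the suffixes x, s or a.

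The pathway genes and lists were chosen with earlier results of these data known. Named were all pathway genes, Hif1an and Vhl, up to 3 genes per list with the smallest p in VHL null against wild type and up to 2 in VHL/FIH null against VHL null cells, and the 3 genes most correlated with each pathway gene. Replicate numbers did not pair the samples: the deviations of same-numbered samples from their group means had r between -0.0161 and 0.0316 in the 6 group pairs.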

Additional observations from a re-analysis of the deposited data

Results flagged for a closer look

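Groups of 2 arrays were not examined for outlying samples, so the results here are those in which the effect of VHL loss differed between cells without and with FIH by the interaction term in limma, among the pathway genes and the named genes around them. Each value is the difference VHL/FIH null minus FIH null, less the difference VHL null minus wild type, on the log2 scale. Pgls gave 0.69 (adjusted p = 5.89e-04), being lower with VHL loss where FIH was present (-0.44) and higher where it was absent (0.25). The second of these was -0.0132 on scaling to the hybridization controls. Of the 3 tested Tkt probe sets 2 passed, at -0.54 on 1439443_x_at (adjusted p = 0.0146) and -0.71 on 1451015_at (adjusted p = 5.39e-04), and 1436605_at gave -0.69 without passing (adjusted p = 0.252). Among genes listed with other NADPH sources, Me1 gave 0.60 (adjusted p = 7.12e-04) and Me2 -0.53 (adjusted p = 0.00586). Among enzymes that spend NADPH, Nqo1 gave -0.44 (adjusted p = 0.0193) and Cbr3 0.51 (adjusted p = 0.0207). G6pc3 gave -0.60 (adjusted p = 0.0102). Adssl1 gave 3.78 (adjusted p = 0.00295), with signals near or below the cutoff in each group.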

How the results depend on the processing

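Each of 112 differences was recomputed under the alternatives that applied to it, giving 2222 values. Of these, 2040 kept their direction and their side of the threshold, 80 no longer passed, 43 newly passed and 59 changed sign. With 2 arrays a group, signals near the cutoff such as those of Adssl1 and Tkt probe set 1436605_at limit what can be told. The cause of each change below was not tested.

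Scaling to hybridization controls, which moved the median of all probe sets by -0.58 in VHL/FIH null, -0.45 in VHL null and -0.26 in FIH null against wild type, gave 28 of the 59 sign changes. In VHL/FIH null against wild type these were Pgls -0.20, Pgd -0.40 (1437380_x_at -0.30) and Rpe -0.43 (1416705_at -0.42). In VHL null against wild type they were Pgd -0.15 (1437380_x_at -0.0186), Tkt -0.18 (1436605_at -0.27) and Prps2 -0.0183. In FIH null against wild type they were Pgls -0.19, Pgd -0.11 (1423706_a_at -0.10, 1437380_x_at -0.13), H6pd -0.14, Rpe -0.22 (1416705_at -0.20), Tkt -0.11 (1436605_at -0.21, 1451015_at -0.21) and Vhl -0.18. In VHL/FIH null against VHL null they were Rpe -0.0270 and Pgd 1423706_a_at -0.10. In VHL/FIH null against FIH null they were Pgls -0.0132, Rpe -0.21 (1416705_at -0.23) and Pgd 1437380_x_at -0.17, and for the interaction Pgd 1423706_a_at 0.00348. Under it the share of higher among called probe sets was 4.85% in VHL/FIH null, 5.22% in VHL null and 1.31% in FIH null against wild type (41.3%, 37.5% and 26.8% in the main analysis), 26.8% in VHL/FIH null against VHL null (53.7%), 15.2% against FIH null (43.8%) and 77.6% for the interaction (57%). Of the lists around the pathway, nucleotide synthesis had 17 lower in VHL null against wild type (5) and NADPH-using enzymes 1 higher in VHL/FIH null against VHL null (6). Called probe sets numbered 18120, 15369, 7942, 7759, 13124 and 3922 in that order, against 8358, 8657, 1062, 7310, 9388 and 3855.

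Median centring turned Pgd 1423706_a_at to 0.0244 in VHL/FIH null, Rpe to 0.0559 and Taldo1 to 0.0392 in VHL null, and Taldo1 to 0.0575 and Pgd 1438627_x_at to 0.0468 in FIH null, all against wild type, and Rpe to -0.0268 for the interaction. It gave shares higher of 54.2%, 53.1%, 64.3%, 51.4%, 39.9% and 36.4% in the order above and 1727 calls in FIH null against wild type. Quantile normalization turned Rpe 1416705_at to 0.0101 in VHL null against wild type. Without probe sets suffixed x, s or a, Tkt turned to -0.20 and Umps to 0.0245 there, and averaging each gene's probe sets turned Prps2 to -0.0161.

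These counts of branch genes that passed moved by more than 1.5 times, and smaller moves are not listed. In the oxidative branch, VHL null against wild type (3) gave 1 with quantile normalization, VHL/FIH null against VHL null (1) gave 2 with scaling to hybridization controls, and the interaction (1) gave 2 with the filter at the 75th percentile, median centring, 1 probe set per gene and the replicate block. In the non-oxidative branch, VHL/FIH null against wild type (2) gave 1 with median centring and with no variance trend and 4 with scaling to hybridization controls. VHL null against wild type (1) gave 2 with median centring, with the replicate block and without probe sets suffixed x, s or a. It gave 3 with scaling to hybridization controls. FIH null against wild type (1) gave 0 with no filter and with no variance trend, where VHL/FIH null against VHL null (3) and against FIH null (3) gave 1 each and the interaction (1) gave 0 in limma with no variance trend.

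With the replicate block, Tkt passed in VHL/FIH null (adjusted p = 0.0249) and VHL null cells (0.0268) against wild type.

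With 1 array left out at a time, the lone array of its group was assumed to vary like the others. Oxidative branch counts ran from 1 to 3 in VHL null against wild type and from 1 to 2 in VHL/FIH null against FIH null. Non-oxidative counts ran from 1 to 2 in VHL/FIH null and in VHL null against wild type, from 0 to 1 in FIH null against wild type, from 2 to 3 in VHL/FIH null against VHL null, from 1 to 3 against FIH null and from 0 to 1 for the interaction. Values that crossed 0 were, in VHL/FIH null against wild type, Pgd 1438627_x_at (-0.22 to 0.0880) and Rpe 1416705_at (-0.0368 to 0.23). In VHL null against wild type they were Rpe (-0.0871 to 0.0374), Taldo1 (-0.11 to 0.0312) and Tkt 1436605_at (-0.0484 to 0.25). In FIH null against wild type they were H6pd (-0.00170 to 0.23), Rpe (-0.0114 to 0.0904), Taldo1 (-0.14 to 0.0716), Pgd 1438627_x_at (-0.15 to 0.0588) and Tkt 1436605_at (-0.10 to 0.20). The others were H6pd in VHL/FIH null against VHL null (-0.26 to 0.0151), Pgd 1438627_x_at (-0.18 to 0.13) and Rpe 1416705_at (-0.10 to 0.17) against FIH null, and Rpe 1416705_at for the interaction (-0.0149 to 0.26).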
